A study of Mus musculus with 39 samples.

Results

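Claudins are the membrane proteins that form the strands of tight junctions, and EPCAM is a homophilic epithelial adhesion molecule. The 9 genes described here, *Cldn3*, *Cldn4*, *Cldn5*, *Cldn6*, *Cldn7*, *Cldn9*, *Cldn10*, *Cldn18* and *Epcam*, were chosen by their symbols from 2 gene count tables, with their levels in these libraries already known, so the p values below describe the genes and are not independent support for their choice. All 9 were found, 1 row each, in tables of 47643 genes. The tables hold 39 bulk RNA sequencing libraries. Epiblasts, the pluripotent epithelium that gives rise to the embryo proper, were dissected singly from CD1 embryos of *Stat3* heterozygous inter-crosses. The *Stat3* null allele has exons replaced by neomycin resistance. There were 2 WT and 4 *Stat3* null libraries at embryonic day (E) 5.5, 9 WT and 8 null at E6.5, and 9 WT and 3 null at E7.5, each from 1 embryo. Epiblast stem cell (EpiSC) lines, self-renewing cultures derived from such epiblasts at E6.5 or E7.5 gave 2 WT libraries (lines 8 and 13) and 2 null libraries (lines 2 and 6), 1 per line, made with a different kit. They were kept on fibronectin in N2B27 medium, to which Activin A, FGF2 and the tankyrase inhibitor XAV-939 were added. Dissection was meant to leave the epiblast without its extraembryonic layers, and genotypes were read from extraembryonic tissue of the same embryo. The sex of the embryos is not given in the sources used here. Which stage each line came from is not given in the sources used here.

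In an epithelium, claudins on neighbouring cells pair across the intercellular space and set how tight the paracellular seal is and which ions pass it. EPCAM binds claudin-7 and protects it from degradation. The epiblast is an epithelium until gastrulation, when cells at the primitive streak undergo an epithelial to mesenchymal transition. In that transition the repressors SNAI1, SNAI2, ZEB1, ZEB2 and TWIST1 lower epithelial adhesion genes, and the SNAI and ZEB proteins bind E-boxes such as CAGGTG, whereas GRHL2 maintains E-cadherin and claudin transcription. STAT3 homodimers bind the palindrome TTCNNNGAA.

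The promoter sequences of the 5 members that carried most of the counts are printed to show the start of each gene whose values are described most below. Each runs from 250 bases before to 50 bases after a RefSeq transcript start (GRCm38.p6), 5′ to 3′ on the gene's strand. Capitals mark every CAGGTG, which reads CACCTG on the other strand, and every TTCNNNGAA. 
Cldn7, second start, chr11:69965171-69965470, plus strand: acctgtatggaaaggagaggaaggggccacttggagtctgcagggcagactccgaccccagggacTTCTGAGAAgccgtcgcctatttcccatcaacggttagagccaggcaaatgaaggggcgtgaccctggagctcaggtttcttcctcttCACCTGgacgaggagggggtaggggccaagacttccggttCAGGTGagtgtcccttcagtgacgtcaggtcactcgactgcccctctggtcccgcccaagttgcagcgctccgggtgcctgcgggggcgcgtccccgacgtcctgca
Epcam, chr17:87635729-87636028, plus strand: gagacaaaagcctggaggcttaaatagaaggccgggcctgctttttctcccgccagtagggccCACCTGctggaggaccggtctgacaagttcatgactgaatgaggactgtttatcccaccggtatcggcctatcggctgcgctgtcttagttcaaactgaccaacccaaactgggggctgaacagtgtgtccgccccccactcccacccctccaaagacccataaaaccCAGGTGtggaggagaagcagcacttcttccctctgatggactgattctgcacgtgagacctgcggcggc
Cldn6, chr17:23679115-23679414, plus strand: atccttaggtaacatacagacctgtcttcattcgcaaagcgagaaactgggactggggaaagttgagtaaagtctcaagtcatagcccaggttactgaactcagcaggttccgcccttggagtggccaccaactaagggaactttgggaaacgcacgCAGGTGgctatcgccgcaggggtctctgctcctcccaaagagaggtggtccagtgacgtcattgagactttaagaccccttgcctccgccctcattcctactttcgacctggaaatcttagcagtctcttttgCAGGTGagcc
Cldn4, chr5:134946885-134947184, minus strand: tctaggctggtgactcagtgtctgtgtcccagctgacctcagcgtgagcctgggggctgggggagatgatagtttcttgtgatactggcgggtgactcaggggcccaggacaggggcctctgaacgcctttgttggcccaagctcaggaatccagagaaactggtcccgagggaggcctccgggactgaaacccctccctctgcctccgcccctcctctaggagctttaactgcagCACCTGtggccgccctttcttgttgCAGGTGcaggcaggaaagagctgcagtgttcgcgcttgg
Cldn3, chr5:134985964-134986263, plus strand: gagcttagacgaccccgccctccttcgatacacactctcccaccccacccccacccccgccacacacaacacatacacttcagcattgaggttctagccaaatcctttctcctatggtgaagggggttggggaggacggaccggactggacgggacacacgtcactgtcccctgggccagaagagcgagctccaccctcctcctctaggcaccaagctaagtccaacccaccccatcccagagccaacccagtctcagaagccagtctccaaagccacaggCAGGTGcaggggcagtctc
RefSeq windows were found for 8 of the 9 members. Some genes have more than 1 start, so the 8 members had 11 windows. CAGGTG was present in 5 of the 11, 1 each of *Cldn3*, *Cldn4*, *Cldn6*, *Cldn7* and *Epcam*, and in 20.2% of all 32851 mouse promoter windows of this length. TTCNNNGAA was present in 1 of the 11, that of *Cldn7*, and in 8.3% of all windows. The grainyhead palindrome AACCGGTT was in no member window and in 0.146% of all windows. The window of the first, upstream start of *Cldn7* had none of the 3. Both strands were searched. A match is a string of letters, not a sign of binding.

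On the GRCm38 map, *Cldn3* and *Cldn4* lie 39.3 kb apart on chromosome 5 in divergent orientation. *Cldn6* and *Cldn9* are convergent neighbours on chromosome 17 whose ends are 138 bases apart. *Cldn7* lies on chromosome 11, 30.9 Mb from *Stat3*. *Cldn3* overlaps the antisense gene *Wbscr25*, *Cldn10* overlaps *n-R5s51* and *Cldn18* overlaps *Gm16004*, both also on the other strand. Whether the authors' counting separated the strands is not given in the sources used here, so the counts of *Cldn3* and *Cldn10* are uncertain.

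Library totals ranged from 22941210 to 79013960 counts in the epiblasts and from 63445877 to 127583699 in the EpiSC lines. *Stat3*, counted over the whole gene, averaged 44.4 ± 7.14 CPM (counts per 1000000 counts of the library) in E5.5 WT (SD, n = 2) and 16.8 ± 5.93 in E5.5 null (n = 4). It averaged 14 ± 6 in E7.5 WT (n = 9) and 1.33 ± 0.133 in E7.5 null (n = 3), and at E6.5 single null libraries reached 7.59, above the lowest WT library at 5.84. In the lines it was 20.4 ± 3.69 in WT and 3.35 ± 0.251 in null (n = 2 each). A gene-wide count includes reads from exons that the null allele retains. Several libraries went against or stood apart from their group. E5.5 null 1 had 0.654 CPM of *Pou5f1*, which marks epiblast, against 101 to 722 in the other 34 epiblast libraries, and 2130 summed CPM over 9 extraembryonic ectoderm markers, against 130 to 715 in the other E5.5 nulls. E6.5 null 1 had 1468 on that list, against 30.2 to 106 in the other E6.5 nulls. E7.5 WT 3 had 6147 summed CPM over 10 epiblast markers, against 1143 to 3252 in the other E7.5 WT libraries. E6.5 WT 3 had 7307 summed CPM over 18 visceral endoderm markers, against 164 to 2235 in the other 8 E6.5 WT libraries, and leaving it out turned the sign of no WT stage difference given below. E6.5 null 3, 4 and 8 had 8363, 6409 and 5602 on the visceral endoderm list, against 592 to 1582 in the other E6.5 nulls.

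Expression was concentrated in *Epcam* and *Cldn6*. Scaled by exon length, the mean level of *Epcam* in WT epiblasts was 136 CPM per kb at E5.5, 122 at E6.5 and 67 at E7.5. *Cldn6* followed with 110, 55.8 and 47.7 CPM per kb. *Cldn7* was at 28.2, 15.9 and 12, *Cldn4* at 30.5, 5.43 and 5.04, and *Cldn3* at 6.72, 3.75 and 1.83. At E5.5, *Cldn4* and *Cldn7* did not differ beyond their spread, since the 2 WT libraries held 11 and 99.7 CPM of *Cldn4*.

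Among the 8 claudins, *Cldn6* made up most of the summed CPM per kb in every group by mean share, though not in every library. At E5.5 its share was 64.1% ± 18 in WT (SD, n = 2) and 53.7% ± 21.4 in null (n = 4), with a lowest library at 22.4%. Its share was 68% ± 2.98 in E6.5 WT (SD, n = 9), 66.9% ± 9.1 in E6.5 null (n = 8), 69% ± 4.54 in E7.5 WT (n = 9) and 70.5% ± 3.96 in E7.5 null (n = 3). *Cldn7* was the second claudin at E6.5 and E7.5, with 19.9% ± 2.55 in E6.5 WT and 17.4% ± 3.34 in E7.5 WT. In EpiSC lines the *Cldn6* share was 83.5% and 91.7% in the WT lines and 70.6% and 74.6% in the null lines, and the *Cldn7* share was 3.99% and 8.55% against 21.5% and 25.3%.

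**Figure D1:**
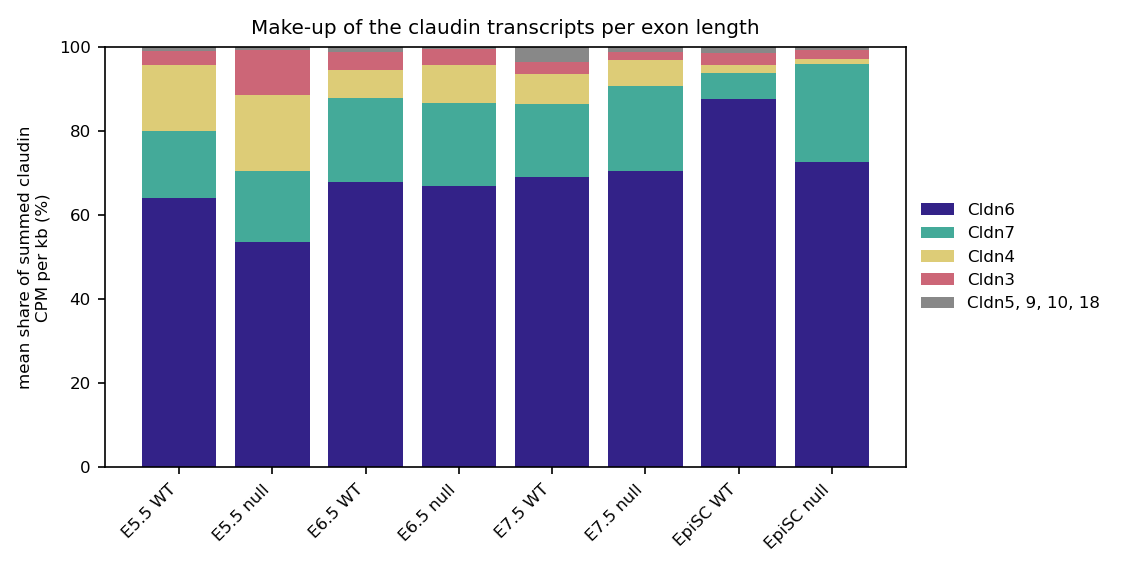
Stacked bars show mean shares (%) of the 8 member claudins in the CPM per kb of exon summed over these 8, for the 8 groups. Claudins outside the members are left out, among them Cldn2 and Cldn12, which reached 45 and 33 CPM in single epiblast libraries. Cldn6 is the largest segment of every bar, from 53.7% in E5.5 null to 87.6% in EpiSC WT, and the Cldn7 segment is small in EpiSC WT, at 6.27%.

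*Cldn18*, a claudin of stomach and lung epithelium, had 0 counts in all 39 libraries. A count of 0 allows up to 3 counts, or 0.0235 to 0.131 CPM depending on the library, counting error only. *Cldn5*, the main claudin of endothelium, had 0 counts in 4 of 4 E5.5 null libraries and 7 of 8 E6.5 null libraries. In E7.5 WT its lowest, median and highest values were 0, 0.465 and 4.79 CPM, the last being 143 counts in 1 library, against 0.0741, 0 and 0.192 CPM in the 3 E7.5 nulls. The ranges overlapped. The 10 endothelial and blood progenitor markers, all found, summed to 7.65 to 185 CPM in E7.5 WT and 11.3 to 48 in E7.5 null, with *Emcn* at 0 in both. The part of those cells in the *Cldn5* counts was not tested. *Cldn10*, a claudin that forms paracellular ion channels, was at 0 in 5 of 9 E7.5 WT libraries and reached 1.52 CPM (108 counts) in 1 E6.5 WT library.

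*Cldn9*, the neighbour of *Cldn6*, was low throughout. In E7.5 WT its lowest, median and highest values were 0.659, 2.15 and 4.88 CPM, against 0.494, 1.29 and 0.984 CPM in the 3 nulls. Its log2 fold change in null against WT was -1.17 (SE 0.69, adjusted p = 0.39), and the groups overlapped. From E6.5 to E7.5 in WT it was 1.25 (SE 0.76, adjusted p = 0.253), also short of the threshold. The deviations of *Cldn9* and *Cldn6*, which end 138 bases apart, from their group means had a Pearson r of -0.04 over 34 epiblast libraries that share depth and composition effects. *Cldn9* held 0 to 133 counts in E6.5 WT and 6 to 44 in E6.5 null. Counting error therefore weighs on this r, which cannot show whether the 2 genes vary together.

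**Figure D2:**
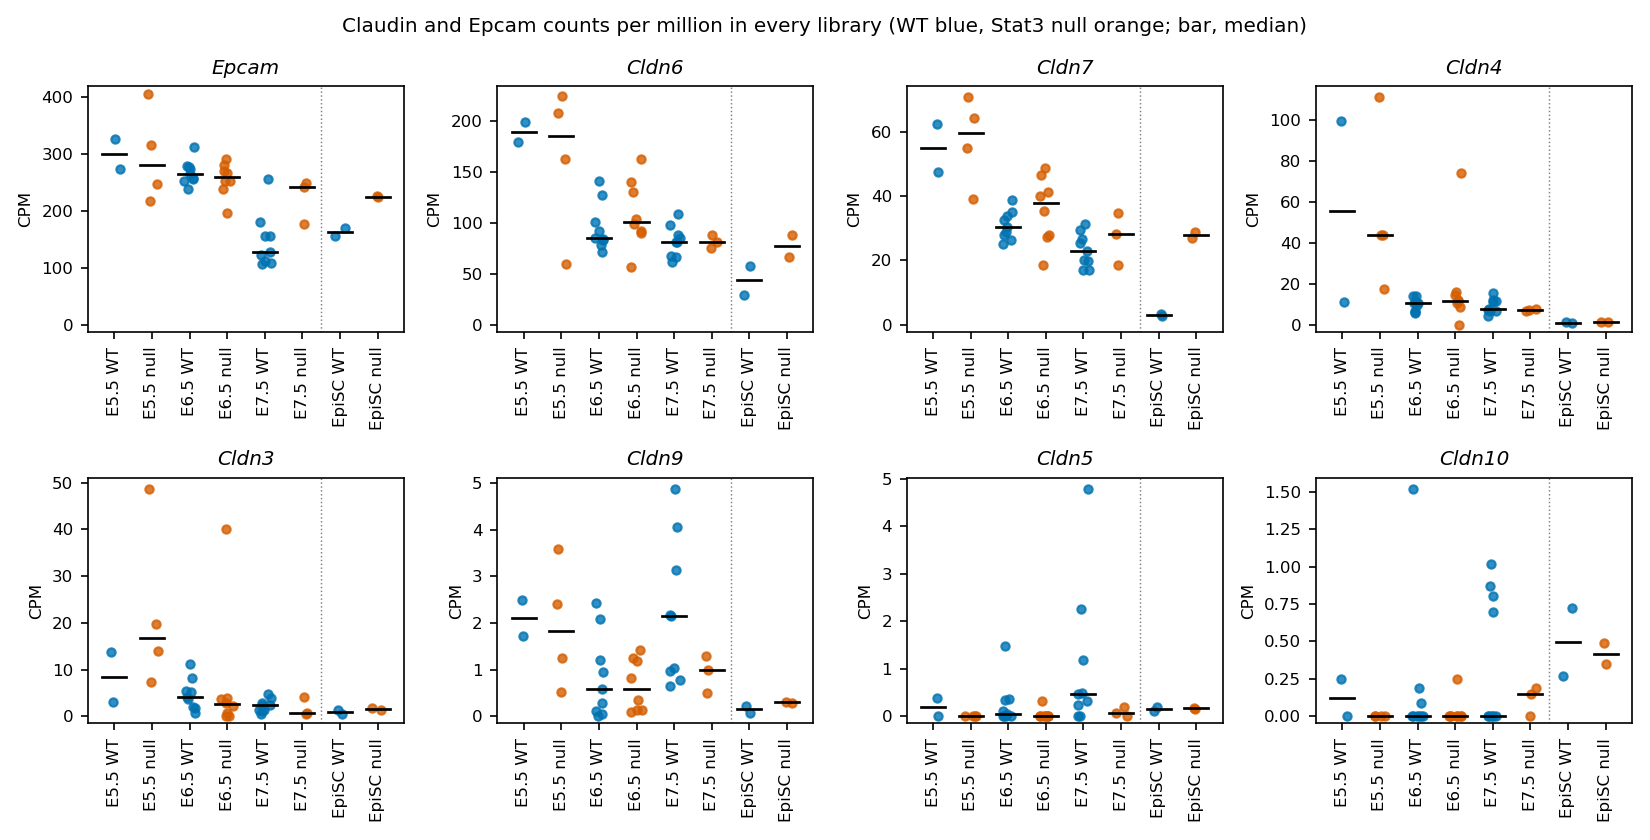
Points are single libraries, in CPM on a linear axis for each of 8 members (Cldn18, at 0 throughout, is left out), WT in blue and Stat3 null in orange, with a bar at the group median. Epcam in E7.5 WT lies between 107 and 255 CPM with 8 of 9 libraries below every E6.5 WT library, and Cldn7 in the 2 EpiSC WT lines lies at 2.86 and 3.42 CPM.

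The first comparison asks how the members differed between successive stages of WT epiblast. A gene was called when its absolute log2 fold change exceeded 1 with a Benjamini-Hochberg adjusted p under 0.05 over all genes tested, by the edgeR quasi-likelihood test. From E5.5 to E6.5, 7 of the 9 members passed the filter on low counts and 1 was called, *Cldn4*, where 5.15% of 20763 genes tested were called and 2.63% were called lower. DESeq2 also called *Cldn4* alone. In these bulk samples fewer cells of a type and less RNA per cell cannot be told apart.

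*Cldn4* encodes a claudin of tight epithelia. It was at 99.7 and 11 CPM in the 2 E5.5 WT libraries, and its lowest, median and highest E6.5 WT values were 5.72, 10.6 and 14.1 CPM. Only the first E5.5 library was far above E6.5, and the second lay inside the E6.5 range. The log2 fold change was -2.47 (SE 0.49, adjusted p = 0.00937). It was -0.14 (adjusted p = 0.959) without E5.5 WT 1 and -3.36 (adjusted p = 0.000185) without E5.5 WT 2. The 9 extraembryonic ectoderm markers, all found, summed to 753 CPM in E5.5 WT 1, 81.8 in E5.5 WT 2 and 24.5 to 55.5 in E6.5 WT, with none at 0 in all libraries of either group. With those markers and the visceral endoderm markers as covariates the log2 fold change was 1.08 (adjusted p = 0.518). The extraembryonic ectoderm sums of the stages did not overlap, so fits with these covariates cannot separate markers from stage.

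*Cldn6* and *Cldn7*, in contrast, were similar in the 2 E5.5 libraries. *Cldn6* was at 180 and 199 CPM at E5.5, and from 71.2 through a median of 85.7 to 141 CPM at E6.5. *Cldn7* was at 62.6 and 47.4 CPM at E5.5, and from 25.2 through 30.3 to 38.9 CPM at E6.5. The groups did not overlap for either gene, as for 16.6% of the tested genes. Fitted log2 differences were -0.94 (SE 0.21, adjusted p = 0.0129) for *Cldn6* and -0.79 (SE 0.18, adjusted p = 0.0134) for *Cldn7*. Both passed the adjusted p, as 9.24% of genes did, and missed the fold threshold. Neither result held the adjusted p throughout. *Cldn6* had an adjusted p of 0.15 without E5.5 WT 1 and 0.0733 without E5.5 WT 2, and *Cldn7* had 0.316 without E5.5 WT 1. With the same marker covariates as for *Cldn4*, *Cldn6* was at -0.34 (adjusted p = 0.604) and *Cldn7* at -0.22 (adjusted p = 0.857). Without E6.5 WT 3, *Cldn6* was at -1.05 (adjusted p = 0.00182) and was called. *Epcam* was at 326 and 273 CPM at E5.5 and from 238 through 264 to 312 CPM at E6.5, a log2 fold change of -0.13 (SE 0.11, adjusted p = 0.539). *Cldn3*, at 13.8 and 3.13 CPM at E5.5 and from 0.757 through 4.16 to 11.2 CPM at E6.5, had a log2 fold change of -0.81 (SE 0.75, adjusted p = 0.583), which turned to 0.63 (adjusted p = 0.871) without E5.5 WT 1.

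Among other adhesion genes most calls of this interval were downward, and these lists were chosen with results of these data known. Of 16 adherens junction and desmosome genes, 12 were tested and 4 were called lower, none higher: the desmosomal genes *Dsp* (log2 fold change -2.58), *Dsc2* (-1.48), *Dsg2* (-1.37) and *Jup* (-1.26). The tetraspanin *Cd9*, from the list of EPCAM partners and proteases, was called lower, with a log2 fold change of -1.72. Of 13 epithelial regulators, 2 were called lower, *Ovol1* (-3.31) and *Elf3* (-2.42), and the list median was -2.42 against 0.10 for all genes. Of 22 other tight junction genes, 21 were tested and *Jam3* was called higher (1.07). *Cdh1*, encoding E-cadherin, was at -0.00 (SE 0.11) and *Grhl2* at -0.49 (adjusted p = 0.0331), below the fold threshold. Visceral endoderm markers, 18 of 18 found and none at 0 in all libraries of either group, summed to 7213 and 9102 CPM in the E5.5 WT libraries and to 164 to 7307 CPM, with a median of 318, in E6.5 WT. With those and the extraembryonic ectoderm markers as covariates, 3 genes were called over all genes, against 1070 without them. This fit cannot separate markers from stage, as said above.

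From E6.5 to E7.5 in WT epiblasts, the stage at which gastrulation begins, *Epcam* had the smallest p of the members. Its lowest, median and highest values were 238, 264 and 312 CPM at E6.5 (n = 9) and 107, 127 and 255 CPM at E7.5 (n = 9). At E7.5, 8 of 9 libraries lay below the lowest E6.5 library, and the exception was E7.5 WT 3. The fitted log2 fold change was -0.95 (SE 0.14, adjusted p = 0.0001), 1.93-fold lower and just short of the fold threshold. Without E7.5 WT 3 it was -1.10 (adjusted p = 2.74e-08) and was called. No member was called in the full set, where 8.83% of 17191 genes were called, 5.74% higher and 3.09% lower. At an unadjusted p under 0.05 there were 4 members of the 7 tested, and DESeq2 called 1, *Cldn3*. That level was common over all genes, since *Cldn6*, the last of the 4 members, ranked 5652 of 17191 genes.

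*Cldn7*, the claudin that EPCAM binds, ranged from 25.2 through 30.3 to 38.9 CPM at E6.5 and from 17 through 22.9 to 31.3 CPM at E7.5, with 5 of 9 E7.5 libraries below the E6.5 range. Its log2 fold change was -0.50 (SE 0.13, adjusted p = 0.00904), and -0.27 (adjusted p = 0.811) with the marker covariates. *Epcam* and *Cldn7* were the 2 members past the adjusted p, which 24.9% of all genes passed. *Cldn6*, from 61.3 through 81.8 to 109 CPM at E7.5, had a log2 fold change of -0.31 (SE 0.14, adjusted p = 0.105). *Cldn4*, from 4.31 through 7.83 to 15.4 CPM, was at -0.20 (SE 0.24, adjusted p = 0.597), and *Cldn3*, from 0.537 through 2.35 to 4.77 CPM, was at -1.15 (SE 0.47, adjusted p = 0.0781). *Cldn3* was called without E6.5 WT 8 (adjusted p = 0.0326) and without E7.5 WT 2 (log2 fold change -1.36, adjusted p = 0.047).

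Repressors of epithelial genes were called higher in the same interval. Of 7 such factors, 6 were tested and 3 rose, with a list median of 2.29 against 0.01 for all genes. *Zeb1* rose by 3.41 (adjusted p = 0.00258), *Zeb2* by 3.54 (adjusted p = 0.000474) and *Twist1* by 2.77 (adjusted p = 0.000101) on the log2 scale. *Zeb2* went from a mean of 8.56 ± 6.44 CPM to 104 ± 36.9 CPM (SD, n = 9 each). *Grhl2*, the activator named above, fell, with a log2 fold change of -1.03 (adjusted p = 5.19e-06), from 73.9 ± 8.6 to 38.2 ± 7.23 CPM. *Cdh2*, the N-cadherin gene of mesenchymal cells, rose by 1.61 (adjusted p = 0.00085), while *Cdh1* was at -0.62 (adjusted p = 0.000247), short of the fold threshold.

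Few tight junction genes outside the members were called. Of 22 tight junction genes, 20 were tested and edgeR called 1, *Ildr2* (1.76, higher), with a list median of -0.06. DESeq2 called 2, and 11 had an unadjusted p under 0.05, a level that was common over all genes here, as given above. *Ocln*, encoding occludin, was at -0.48 (adjusted p = 0.0556) and *Tjp1*, encoding the scaffold ZO-1, at -0.06 (adjusted p = 0.486). Of 29 claudins outside the members, 27 were listed, 12 had 0 counts in all epiblasts and 5 were tested. The only call was *Cldn2*, a claudin of leaky epithelia, higher by 2.01 (adjusted p = 0.0353), from 2.71 ± 3.54 to 12 ± 8.07 CPM. *Dsp* was called higher at E7.5 (2.18) after the lower call at E6.5, and *Klf4* was called higher (1.67).

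Markers of other cell types differed between the same groups. The visceral endoderm list summed to 164 to 7307 CPM (median 318) in E6.5 WT and 716 to 5844 CPM (median 2568) in E7.5 WT. The extraembryonic ectoderm list summed to 24.5 to 55.5 and 32.6 to 305 CPM. The 8 surface ectoderm markers summed to 101 to 470 CPM at E6.5 (median 121) and 198 to 720 CPM at E7.5 (median 673), and the epiblast list to 4605 to 7270 and 1143 to 6147 CPM. No gene of these 4 lists was at 0 in all libraries of either group. With the visceral endoderm and extraembryonic ectoderm lists as covariates, *Epcam* was at -0.26 (adjusted p = 0.602). Both lists differed in level between the stages, so this fit cannot fully separate markers from stage.

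**Figure D3:**
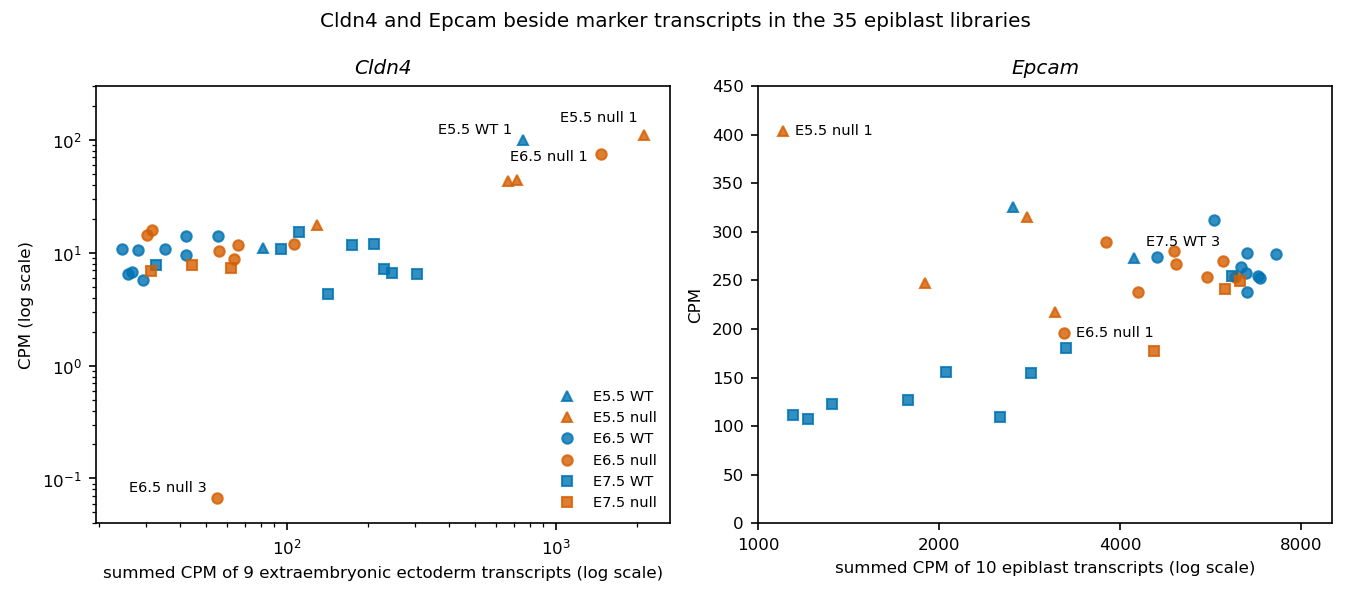
Each point is 1 of the 35 epiblast libraries. On the left Cldn4 (CPM, log scale) is plotted against the summed CPM of 9 extraembryonic ectoderm markers (log scale), and the 5 libraries farthest to the right have the highest Cldn4, 43.6 to 111 CPM. On the right Epcam (CPM) is plotted against the summed CPM of 10 epiblast markers (log scale), and E7.5 WT libraries other than E7.5 WT 3 sit at 107 to 180 CPM.

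The second comparison asks what the loss of *Stat3* changed at each stage. At E5.5, 6 of 9 members were tested and none was called or had an unadjusted p under 0.05, with 0% of 18690 genes called by edgeR, 467 at an unadjusted p under 0.05 and 32 called by DESeq2. DESeq2 called no member. *Epcam* was at 404, 247, 217 and 315 CPM in the 4 null libraries and at 326 and 273 CPM in WT. The claudins of E5.5 null 1 differed from those of the other 3 nulls: *Cldn4* was at 111 CPM against 43.7, 17.5 and 43.6, *Cldn3* at 48.7 against 19.7, 7.24 and 14, and *Cldn6* at 59.7 against 225, 208 and 163. Without that library the null means were 34.9 ± 15.1 CPM for *Cldn4*, 13.6 ± 6.24 for *Cldn3* and 199 ± 32 for *Cldn6* (SD, n = 3). *Cldn7* was at 39.2, 70.9, 64.4 and 55.1 CPM in the nulls, around the WT values of 62.6 and 47.4.

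At E6.5, 6 of 9 members were tested, none was called or had an unadjusted p under 0.05, and 0% of 17095 genes were called by edgeR, with 1414 at an unadjusted p under 0.05 and 28 called by DESeq2. DESeq2 called no member. *Epcam* ran from 196 through 260 to 290 CPM in null (n = 8), a log2 fold change of -0.08 (SE 0.07, adjusted p = 0.863) against WT. *Cldn6* ran from 57.1 through 102 to 163 CPM in null (0.16, SE 0.18, adjusted p = 0.897), and *Cldn7* from 18.6 through 37.8 to 48.7 CPM (0.18, SE 0.17, adjusted p = 0.871). Null libraries lay on both sides of the WT range for both claudins. Visceral endoderm markers summed to 592 to 8363 CPM in null (median 1282) and 164 to 7307 in WT (median 318). E6.5 null 3, 4 and 8, at 8363, 6409 and 5602, had *Cldn7* at 48.7, 46.6 and 41.3 CPM, above the highest WT value of 38.9. E6.5 null 1, at 750, was also above it, at 40.2 CPM. With the extraembryonic lists as covariates *Cldn6* was at -0.28 (adjusted p = 0.723) and *Cldn7* at -0.20 (adjusted p = 0.883).

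*Cldn4* and *Cldn3* were scattered among the E6.5 nulls. *Cldn4* was at 74.2 CPM in E6.5 null 1, at 0.0669 CPM (3 counts) in E6.5 null 3, and between 8.88 and 16 CPM in the other 6. *Cldn3* was at 40.2 CPM in E6.5 null 1, at 0 in E6.5 null 2, and between 0.0892 and 3.90 CPM in the other 6. The log2 fold changes against WT were 0.91 (SE 0.61, adjusted p = 0.788) for *Cldn4* and 0.52 (SE 0.93, adjusted p = 0.949) for *Cldn3*. Without E6.5 null 1 they were 0.05 (adjusted p = 1) and -1.37 (adjusted p = 0.755). Libraries numbered 1 to 3 of both genotypes had over 40000000 counts at E6.5. Within the libraries under that depth *Cldn4* was at 0.42 (adjusted p = 0.521), *Cldn3* at -0.20 (adjusted p = 0.933) and *Epcam* at 0.01 (adjusted p = 0.956). Within the deeper 3 against 3 *Cldn4* was at 1.32 and *Epcam* at -0.28 (adjusted p = 1 for both).

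At E7.5, 8 of 9 members were tested and none was called, where 1.17% of 19680 genes were called. DESeq2 called none either, and 1 member, *Epcam*, had an unadjusted p under 0.05. *Epcam* was at 241, 249 and 177 CPM in the 3 nulls, and the lowest, median and highest WT values were 107, 127 and 255 CPM. The nulls lay in the upper part of the WT range. Null against WT gave a log2 fold change of 0.67 (SE 0.25, adjusted p = 0.164). Without E7.5 WT 3 it was 0.82 (adjusted p = 0.00252), still below the fold threshold, with the remaining 8 WT libraries at 107 to 180 CPM. Epiblast markers summed to 4555 to 6324 CPM in null against 1143 to 6147 in WT, visceral endoderm markers to 140 to 490 against 716 to 5844, and surface ectoderm markers to 102 to 197 against 198 to 720, with *Wnt6* at 0 in the nulls. With the extraembryonic lists as covariates the *Epcam* value turned to -0.05 (adjusted p = 0.999). The visceral endoderm sums of the genotypes did not overlap, so this fit cannot separate those markers from genotype.

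The claudins of the E7.5 nulls sat within the WT ranges, with few exceptions. *Cldn6* was at 88, 81.5 and 75.4 CPM in null against 61.3 through 81.8 to 109 in WT (log2 fold change 0.07, SE 0.15, adjusted p = 0.895). *Cldn7* was at 34.7, 28.3 and 18.5 CPM (0.30, SE 0.22, adjusted p = 0.537), 1 of 3 above the WT range. *Cldn4* was at 6.94, 7.78 and 7.37 CPM (-0.23, SE 0.32, adjusted p = 0.793). *Cldn3* was at 0.667, 4.04 and 0.384 CPM (-0.36, SE 0.72, adjusted p = 0.872), and its sign rested on single null libraries, 0.02 without null 1 and 0.11 without null 3. Among the repressors, 1 of 7 tested was called, *Twist1*, lower in null with a log2 fold change of -2.98 (adjusted p = 0.0479), at 2.91 ± 2.17 CPM against 24.4 ± 9.11 in WT, and the list median was -2.34 against -0.02 for all genes. DESeq2 called 4 of these 7. Of the 13 epithelial regulators, all tested, edgeR called 0, DESeq2 called 4 and 8 had an unadjusted p under 0.05, with a list median of -0.96. *Grhl2* was at 0.53 (adjusted p = 0.0834) and *Cdh1* at 0.46 (adjusted p = 0.159). Of the 21 tight junction genes tested, edgeR called 0, DESeq2 called 2 and 4 had an unadjusted p under 0.05. Of the 11 EPCAM partners and proteases tested, edgeR called 0, DESeq2 called 1 and 2 had an unadjusted p under 0.05.

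The third comparison asks whether the stage difference itself depended on genotype. From E6.5 to E7.5 in null epiblasts, *Epcam* went from 196, 260 and 290 CPM (lowest, median and highest, n = 8) to 241, 249 and 177 CPM. The groups overlapped, and the log2 fold change was -0.21 (SE 0.12, adjusted p = 0.773), beside -0.95 in WT. *Cldn6* was at -0.43 (SE 0.24, adjusted p = 0.736) and *Cldn7* at -0.40 (SE 0.29, adjusted p = 0.867). None of the 6 members tested was called or had an unadjusted p under 0.05, DESeq2 called none, and 0.103% of 19460 genes were called. Of the repressors *Zeb2* was called higher (3.10, adjusted p = 0.0301), from 4.09 ± 2.40 CPM (n = 8) to 35 ± 25.3 CPM (n = 3).

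In the test of the interaction, the difference between the genotype effects at E7.5 and E6.5, *Epcam* was at 0.74 on the log2 scale (SE 0.22, adjusted p = 0.0891). It was not called, nor was any of the 8 members tested, where 0.443% of 22122 genes were called. *Epcam* was the 1 member with an unadjusted p under 0.05, and DESeq2 called none. Without E7.5 WT 3 the *Epcam* value was 0.89 (adjusted p = 0.000893), and with the extraembryonic lists as covariates it was 0.33 (adjusted p = 0.879). The latter fit has the limit given above for E7.5. *Twist1* (-3.45, adjusted p = 0.0441) and *Dsp* (-3.25, adjusted p = 0.038) were the called genes of the pathway lists.

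When E7.5 nulls were set against E6.5 WT, *Epcam* was at 241, 249 and 177 CPM against 238, 264 and 312 CPM (lowest, median and highest), a log2 fold change of -0.30 (SE 0.10, adjusted p = 0.367). *Cldn6* was at -0.27 (SE 0.19, adjusted p = 0.788) and *Cldn7* at -0.22 (SE 0.18, adjusted p = 0.849). None of 7 members tested was called, DESeq2 called none, 1 had an unadjusted p under 0.05, and 0.162% of 19749 genes were called. This comparison shares its E6.5 WT libraries with the WT stage comparison and its nulls with the E7.5 genotype comparison.

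**Figure D4:**
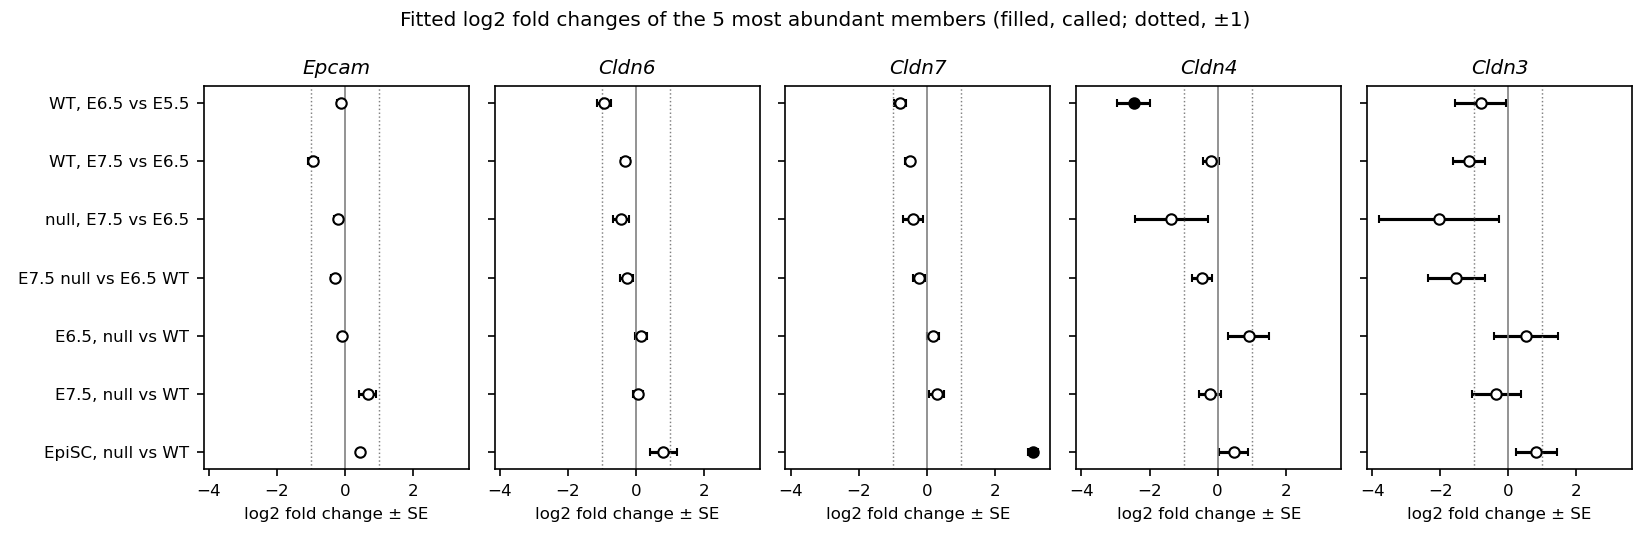
Fitted log2 fold changes (x axis) with their SE are shown for the 5 most abundant members in 7 comparisons, filled where called and open where not, with dotted lines at -1 and 1. The 2 filled points are Cldn4 between E6.5 and E5.5 WT, at -2.47, and Cldn7 in null against WT EpiSC lines, at 3.13.

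In the EpiSC lines *Cldn7* was called higher in the *Stat3* null lines than in the WT lines. It had 27.1 CPM (1718 counts) in null line 2 and 28.8 CPM (2640 counts) in null line 6, against 3.42 CPM (342 counts) in WT line 8 and 2.86 CPM (365 counts) in WT line 13. The lines of each genotype were close together and the genotypes far apart. The log2 fold change was 3.13 (SE 0.15, adjusted p = 0.00162), 8.78-fold higher, and leaving out any 1 line gave 2.99 to 3.29. Of the 8 members tested it was the only one called, where 0.106% of 20736 genes were called and 0.0434% were called higher. It ranked 4 of all genes by p. DESeq2 also called *Cldn7* and no other member. Each genotype rests on 2 lines, so the spread measured is that between 2 lines.

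**Figure D5:**
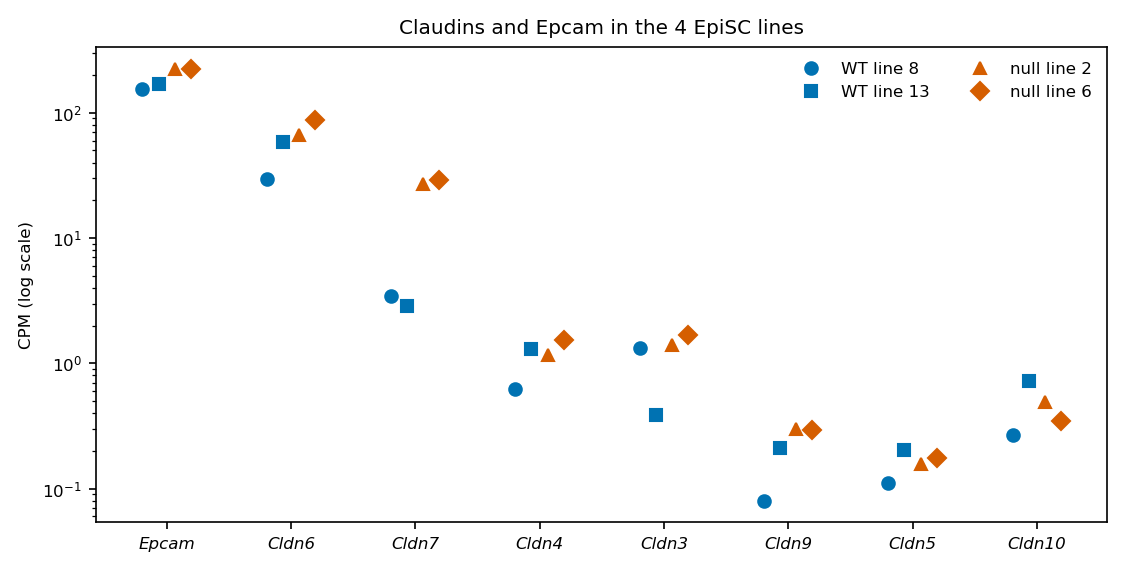
Points are the 4 EpiSC lines, in CPM on a log axis, for 8 members, WT in blue and Stat3 null in orange. Cldn7 is the member whose null lines, at 27.1 and 28.8 CPM, stand far above both WT lines, at 3.42 and 2.86 CPM.

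Genes beside *Cldn7* were not called by edgeR, and none had an adjusted p under 0.755. The 11 other genes tested within 50 kb on chromosome 11, from *Gps2* to *Dlg4* and including *Elp5*, which ends next to it, had log2 fold changes between -0.02 and 0.17 against 3.13 for *Cldn7*. The promoter window of the second *Cldn7* start, printed above, is the only member window with TTCNNNGAA, at position 66 counted from 1 at its 5′ end, and it also holds CAGGTG. The data hold no measurement of binding there.

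*Epcam*, *Cldn6* and *Cldn3* were also at higher values in both null lines than in both WT lines, without a call. *Epcam* was at 224 and 225 CPM in null and at 156 and 169 CPM in WT lines 8 and 13 (log2 fold change 0.45, SE 0.07, adjusted p = 0.112). *Cldn6* was at 66.7 and 88.2 CPM against 29.5 and 58.1 (0.81, SE 0.39, adjusted p = 0.71). *Cldn3* was at 1.39 and 1.67 CPM against 1.33 and 0.384 (0.82, SE 0.60, adjusted p = 0.798). The genotypes did not overlap for these genes, *Cldn7* or *Cldn9*, 5 of 8 members, as for 40.2% of all genes tested. *Cldn4* did overlap, at 1.17 and 1.53 CPM against 0.619 and 1.3 (0.47, SE 0.42, adjusted p = 0.84). *Cldn10* overlapped too, at 0.489 and 0.349 CPM in null and 0.27 and 0.721 CPM in WT lines 8 and 13, and its mean was lower in null.

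Of 20 other tight junction genes tested in the lines, edgeR called 0, DESeq2 called 1 and 4 had an unadjusted p under 0.05. *Cdh1* was at 0.74 (adjusted p = 0.693), *Ocln* at 0.89 (adjusted p = 0.339), *Grhl2* at 0.52 (adjusted p = 0.735) and *Cdh2* at -0.71 (adjusted p = 0.0645). Of the 7 repressors, all tested, edgeR and DESeq2 called 0 and 2 had an unadjusted p under 0.05. They had a median of -0.51 against -0.01 for all genes, with *Zeb1* at 32.4 ± 9.13 CPM in null and 52.1 ± 8.15 in WT (SD, n = 2 each). The 10 definitive endoderm and notochord markers, all found, summed to 17.9 and 23.5 CPM in the null lines and 58.9 and 76.6 CPM in the WT lines, with *Noto* at 0 in the nulls, and their part in the *Cldn7* difference was not tested. Surface ectoderm markers overlapped, at 26.6 and 42.1 against 14.9 and 30.2 CPM, and visceral endoderm markers were low, at 44.1 and 47.4 against 57 and 66.8 CPM, with *Ttr* at 0 in both.

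Set beside the epiblasts, the WT lines were low for *Cldn7*. All 35 epiblast libraries, from 17 to 70.9 CPM, lay above both WT lines, whereas the 2 null lines lay inside the E6.5 WT range of 25.2 to 38.9 CPM. *Cldn4* and *Epcam* were below every E6.5 WT library in all 4 lines. *Cldn6* was below them in both WT lines and in null line 2, and inside the E6.5 WT range in null line 6. For *Epcam* all 4 lines lay inside the E7.5 WT range of 107 to 255 CPM. The tables come from different kits, so these levels were not tested against each other.

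The genes that varied most like each member across the epiblasts were ranked by the Pearson r of log2 CPM deviations from the group mean over 34 libraries (E5.5 null 1 left out). *Epcam* was most like *Slc7a3* (r = 0.78), *Foxd3* (0.77) and *Fgf5* (0.74), and without the 2 libraries farthest from the median, E7.5 WT 3 and E7.5 WT 5, these were 0.57, 0.54 and 0.57. *Cldn4* was most like *Rtn1* (0.92), *Parva* (0.91) and *Tnfrsf1a* (0.91), which fell to 0.51, 0.52 and 0.56 without E6.5 null 1 and E6.5 null 3. *Cldn3* was most like *Proser2* (0.86), *Cdyl2* (0.84) and *1700047I17Rik2* (0.83), which were 0.69, 0.76 and 0.69 without E6.5 null 1 and E6.5 null 2. *Cldn7* was most like *Gm24564* (0.77), *Golga4* (0.73) and *Gm37333* (0.72), which were 0.64, 0.73 and 0.58 without E6.5 null 2 and E7.5 null 3. *Cldn6* was most like *Gm14399* (0.76), *Plbd2* (0.75) and *AI464131* (0.75), which were 0.68, 0.64 and 0.65 without E6.5 null 2 and E6.5 null 4. Between members the highest values were 0.65 for *Cldn6* with *Cldn7*, 0.58 for *Cldn3* with *Cldn6* and 0.52 for *Cldn3* with *Cldn4*, and *Cldn7* with *Epcam* was at 0.34. The libraries share depth and composition effects, so these values are descriptions.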

How the data were processed

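Gene counts, as deposited by the authors, were used for 35 single epiblasts and 4 EpiSC lines. The submitters' processing notes name Trim Galore, HISAT2 (GRCm38) and StringTie. The annotation and the strand setting are not given in the sources used here. Both tables are unfiltered raw counts, and 0 columns were left out. Embryos are separate animals and each line is 1 library. Tests used edgeR 4.0.16 (R 4.3.3, limma 3.58.1) with TMM scaling, filterByExpr (minimum count 10, total 15) and quasi-likelihood tests, two-sided, with Benjamini-Hochberg adjustment over all genes tested. SE is the log2 fold change divided by the square root of F. DESeq2 1.42.0, RLE scaling, other count filters, marker sums as covariates, a common fit, depth groups, a replicate block and leaving out each library were alternatives. A count of 0 allows up to 3 counts, and counting limits cover counting error only. On simulated counts for the EpiSC comparison (20150 genes), 93.4% of genes changed by 3 on the log2 scale were called. There 26.6% of genes changed by 1 were called. For null against WT, a change of 1 was called in 1.75% of such genes at E5.5, 20.6% at E6.5 and 21.5% at E7.5. A change of 3 was called in 54.1%, 85% and 73.8%. A change of 1 was called in 13.8% for E7.5 against E6.5 null and in 6.25% for the interaction. A member that was not called may therefore still have differed. Members and lists were chosen with earlier results of these data known. All members were named, with the called genes of the pathway lists (at most 6 per comparison by p), *Ocln*, *Tjp1*, *Cdh1*, *Cdh2* and *Grhl2*. The 3 genes most like each of *Epcam*, *Cldn3*, *Cldn4*, *Cldn6* and *Cldn7* were also named. Those of *Cldn5*, *Cldn9* and *Cldn10* were ranked but are not named. Called genes beyond those 6 were named after their values were seen. Promoters came from RefSeq (GRCm38.p6) and exon lengths from the GENCODE annotation of GRCm38. 1 result of the pathway lists is not reported here.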

Additional observations from a re-analysis of the deposited data

Results flagged for a closer look

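*Cldn4* in E6.5 null 3 lay far from the rest of its group, at 0.0669 CPM (3 counts) against 8.88 to 74.2 CPM in the other 7 E6.5 nulls. On the log2 scale its gap to the nearest library was 0.691 of the group's range. It was 1 of 25 gene and group pairs tested, and chance alone sets apart about 5% of groups.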

How the results depend on the processing

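The *Cldn7* call in the EpiSC lines held under every alternative run, and *Cldn7* was the 1 member called in each. For E6.5 against E5.5 WT, 1 member was called, against 2 with a mean count of at least 50, 0 with marker lists as covariates, and 0 to 2 on leaving out single libraries (0 without E5.5 WT 1, 2 without E5.5 WT 2, E6.5 WT 1 or E6.5 WT 3). For E7.5 against E6.5 WT, 0 members were called, against 1 by DESeq2 (*Cldn3*) and 0 to 1 on leaving out single libraries (1 without E6.5 WT 8, E7.5 WT 2 or E7.5 WT 3). Log2 fold changes below turned sign, and the cause was not tested. Marker sums differed between several of the groups compared, so fits with them as covariates cannot fully separate markers from stage or genotype. With marker lists as covariates, E6.5 null against WT gave -2.06 for *Cldn3*, -0.13 for *Cldn4*, -0.28 for *Cldn6* and -0.20 for *Cldn7*, E7.5 null against WT gave -0.13 for *Cldn6* and -0.05 for *Epcam*, E6.5 against E5.5 WT gave 2.31 for *Cldn3*, 1.08 for *Cldn4* and 0.22 for *Epcam*, E7.5 against E6.5 WT gave 0.03 for *Cldn6*, E7.5 against E6.5 null gave 0.14 for *Cldn6* and 0.34 for *Cldn7*, and E7.5 null against E6.5 WT gave 0.02 and 0.10. At E6.5, DESeq2 gave -1.26 for *Cldn3*, the shallower libraries gave -0.20 for *Cldn3* and 0.01 for *Epcam*, and the deeper gave -0.38 for *Cldn6*. Leaving out single libraries, *Cldn3* ran from -1.37 to 0.81 at E6.5, from -2.03 to 0.11 at E7.5, and from -1.56 to 0.63 for E6.5 against E5.5 WT.

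Deviations of same-numbered WT and null libraries had r from 0.03 to 0.19 at E5.5, from 0.03 to 0.20 at E6.5, where 5 of 8 pairs were over 0.1, and from -0.15 to 0.01 at E7.5. Not every pair was over 0.1 at any stage, so the main fits took the libraries as sharing only a number. This rule cannot exclude a shared batch or litter. All E6.5 pairs had a positive r, and the deeper E6.5 libraries had the same numbers in both genotypes. What a shared number means between stages is not given in the sources used here, so block fits across stages cannot decide it either. With the replicate block, 0 members were called for E6.5 against E5.5 WT and 1, *Epcam*, for E7.5 against E6.5 WT. *Cldn3* was at -0.96 at E6.5 and 0.05 for E6.5 against E5.5 WT, where *Epcam* was at 0.04. Calls over all genes went from 1070 to 101 for E6.5 against E5.5 WT, from 231 to 0 at E7.5, from 20 to 0 for E7.5 against E6.5 null, from 32 to 81 for E7.5 null against E6.5 WT and from 98 to 22 for the interaction. The lines share no numbers, so no block was fitted there.

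Calls over all genes by DESeq2 were 2037, 2331, 1010, 324, 273, 214 and 633 for E6.5 against E5.5 WT, E7.5 against E6.5 WT, E7.5 null against WT, E7.5 against E6.5 null, E7.5 null against E6.5 WT, EpiSC and the interaction. With marker lists as covariates they were 3, 67, 1, 2, 21 and 0 for these, EpiSC left out. Without E6.5 WT 3 the count for E6.5 against E5.5 WT was 2029. The E7.5 null against WT count, 231, was 1105 without E7.5 WT 3 and 0 without E7.5 null 2.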
